A study of Homo sapiens with 7 samples.

Results

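RBFOX2 encodes an RNA-binding protein that regulates alternative splicing, and its own transcripts differ in their first exon, their internal exons and their 3′ end. The set described here comprised every isoform row of RBFOX2 in the deposited table, chosen by the gene ID stem ENSG00000100320: 106 rows of 386982. A row is 1 isoform ID with 1 listed start position and 1 listed end position. The gene is transcribed from the minus strand of chromosome 22, so the listed start column is the 3′ end of the transcript and the listed end column is its 5′ end. By the 5′ end, 60 rows began at the proximal first exon, 29 at the distal first exon, and 17 elsewhere. The proximal and distal windows were 35840192 to 35840500 and 36028240 to 36028800 (GRCh38), each widened by 200 nt.

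All 7 libraries came from the established human embryonic stem cell line HUES66 and were made from polyadenylated RNA of cultures given 1 µg/ml doxycycline for 24 h. The control carried the genotype WT in the labels, and the other 6 carried the genotype RBFOX2 isoform KD, the series being one on Cas13d, a nuclease that an RNA guide directs to RNA. Those 6 are called the G libraries: G12 (id 178135), G11 (id 178136), G13 (id 178145), G14 (id 178146), G3 (id 178147) and G5 (id 178149). Every sample was also described as piggyBac, a transposon vector. The labels do not say which isoform an id denotes, nor whether a culture was 1 clone, and each group had 1 library. No difference below therefore has a replicate check, no test was possible, and every interval is a 95% interval that covers counting error only.

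Long-read libraries of this kind read a cDNA from its poly(A) tail to its 5′ end, so both ends of a molecule can be seen together. Cleavage and polyadenylation usually follow a hexamer such as AATAAA or ATTAAA in the RNA, and many genes have several such sites in their last exon, which give transcripts of different 3′ UTR length. Where the genome itself is rich in A, the oligo(dT) primer used to copy polyadenylated RNA can also anneal inside a transcript. A first exon reflects the promoter used and, in RBFOX2, sets part of the N terminus of the protein.

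All 106 rows ended in the same last exon, 35738736 to 35744249 (5514 nt, GENCODE 29), past the stop codon and so in the 3′ UTR. They shared 18 listed positions, which fell into 6 groups when a new group was opened at each gap of more than 100 nt. The groups are numbered from the start of the last exon. The letters around the leading position of 5 of the groups, and around the commonest one of group 2, are shown. They give the hexamer before the end, or the A after it, for the printed position alone. In group 2 that position, 35743945, held 602 reads over all libraries, and 35743911, which is not printed, held 4663. The letters are taken from GENCODE 29 transcripts on GRCh38, read 5′ to 3′ on the minus strand. In the first 3 the 20 bases just after the listed end are printed with A in capitals, and in the last 3 the 30 bases up to and including the listed end with the hexamer in capitals.

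Group 1, 20 bases after the end, chr22:35744085-35744104: AAAAAcAAAcAAAcAAAcAA

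Group 2, 20 bases after the end, chr22:35743925-35743944: AAAAAAAAAAAAAAtAAtgc

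Group 4, 20 bases after the end, chr22:35743118-35743137: AAAgtttAAAAAAtAgAAtA

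Group 3, 30 bases up to the end, chr22:35743599-35743628: gaATTAAAaagacgctttcctctcctcttc

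Group 5, 30 bases up to the end, chr22:35742418-35742447: actcatgtccctgaATTAAAatgactgacc

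Group 6, 30 bases up to the end, chr22:35738737-35738766: cactgtttttaAATAAAagagagaaacacc

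The listed ends of groups 3, 5 and 6 had ATTAAA 28 nt before the end, ATTAAA 16 nt before it and AATAAA 19 nt before it. Neither hexamer was found within 60 nt before the leading ends of groups 1, 2 and 4. The search took the letters AATAAA and ATTAAA on the transcript strand only, and 7.33% of the 5455 windows of 60 nt in the last exon held one of them, against 44.8% of the 83129 ends of protein-coding transcripts in GENCODE 29. The 20 bases after the commonest ends of groups 1 and 2 each held 16 A, and those after the end of group 4 held 13. Windows of this length with at least 12 A made up 1.86% of the 5495 in the last exon, and windows with at least 16 made up 0.546%. The group 2 position with the most reads, 35743911, lay 34 nt further on, past that run of A, and had 3 A in the 20 bases after it. A match of letters describes the position and does not show how an end arose.

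Group 1, the nearest to the stop codon, held 71 of the 106 rows and few of the reads. Its rows ended 133 to 145 nt into the last exon, 68 of them at the single position 35744105, and 46 had only 1 read in the control. No row of the group carried a reference transcript ID, and no row had more than 10 control reads. Read numbers here and below are not scaled for depth. The group held 145 reads in the control, 121 in G12, 101 in G14, 100 in G5, 77 in G3, 69 in G11 and 65 in G13. That was 8.05% of RBFOX2 reads in the control (6.88 to 9.39), and 3.998% to 5.13% in 5 of the G libraries. G3 stood at 10.25% (8.28 to 12.6), the 1 share of the 36 compared whose difference from the control had an interval that reached 0.

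Group 2 held the largest share in the control, and TPM below stands for reads of each library taken to a common total, without regard to length. Its 28 rows ended 249 to 339 nt into the last exon and were led by ENST00000416721.6, a proximal isoform with 472 control reads. The group held 1332 reads in G14, 1144 in G11, 1102 in G5, 954 in the control, 765 in G12, 461 in G3 and 357 in G13. Its share ran from 28.0% in G13 (25.6 to 30.5) and 32.4% in G12 (30.6 to 34.3), through 52.9% in the control (50.6 to 55.2), to 66.3% in G11 (64.0 to 68.5). Relative to the control, its level in TPM was 27.6% in G13 (24.4 to 31.2), 45.5% in G3 (40.6 to 50.9) and 112% in G14 (103 to 122).

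Groups 3 to 6 ended further into the exon and were each almost wholly 1 isoform. Group 3, at 648 to 651 nt, was 99.3% 1 distal row and held 177 reads in G14, 165 in G12, 97 in G3, 86 in the control, 20 in G5, 11 in G13 and 7 in G11. It was low in G5, G11 and G13, at 15.35%, 6.57% (2.56 to 14.1) and 9.43% of the control level. In G14 it was above the control, at 165% (127 to 216). No read with a proximal start was listed in this group in any library.

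Group 4, at 1112 nt, was 1 proximal row with 475 reads in G5, 473 in G13, 457 in G11, 279 in G12, 260 in the control, 49 in G14 and 47 in G3. Its share of RBFOX2 reads was 14.4% in the control (12.9 to 16.1), highest in G13 at 37.1% (34.5 to 39.8) and lowest in G14 at 2.21% (1.68 to 2.91). Group 5, at 1832 nt, was also 1 proximal row, with 366 reads in G12, 292 in G13, 271 in G5, 120 in the control, 40 in G14, 29 in G3 and 12 in G11. The share of group 5 was 6.66% in the control (5.598 to 7.91), 22.9% in G13 (20.7 to 25.3) and 0.695% in G11 (0.398 to 1.21).

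Group 6 was listed at the far end of the exon, at 5513 nt, which would give the longest 3′ UTR of the listed ends. ENST00000449924.6, a proximal isoform, supplied 99.9% of the reads of the group. GENCODE 29 ends that ID 4865 nt short of this position, and where its reads ended cannot be seen in these values. The group held 664 reads in G12, 517 in G14, 496 in G5, 237 in the control, 77 in G13, 40 in G3 and 37 in G11. Its share was 13.2% in the control (11.7 to 14.8), 28.1% in G12 (26.4 to 29.98), 23.3% in G14 (21.6 to 25.1) and 2.14% in G11 (1.56 to 2.94). G5, G12 and G14 lay above the control, and G3, G11 and G13 below it.

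**Figure D1:**
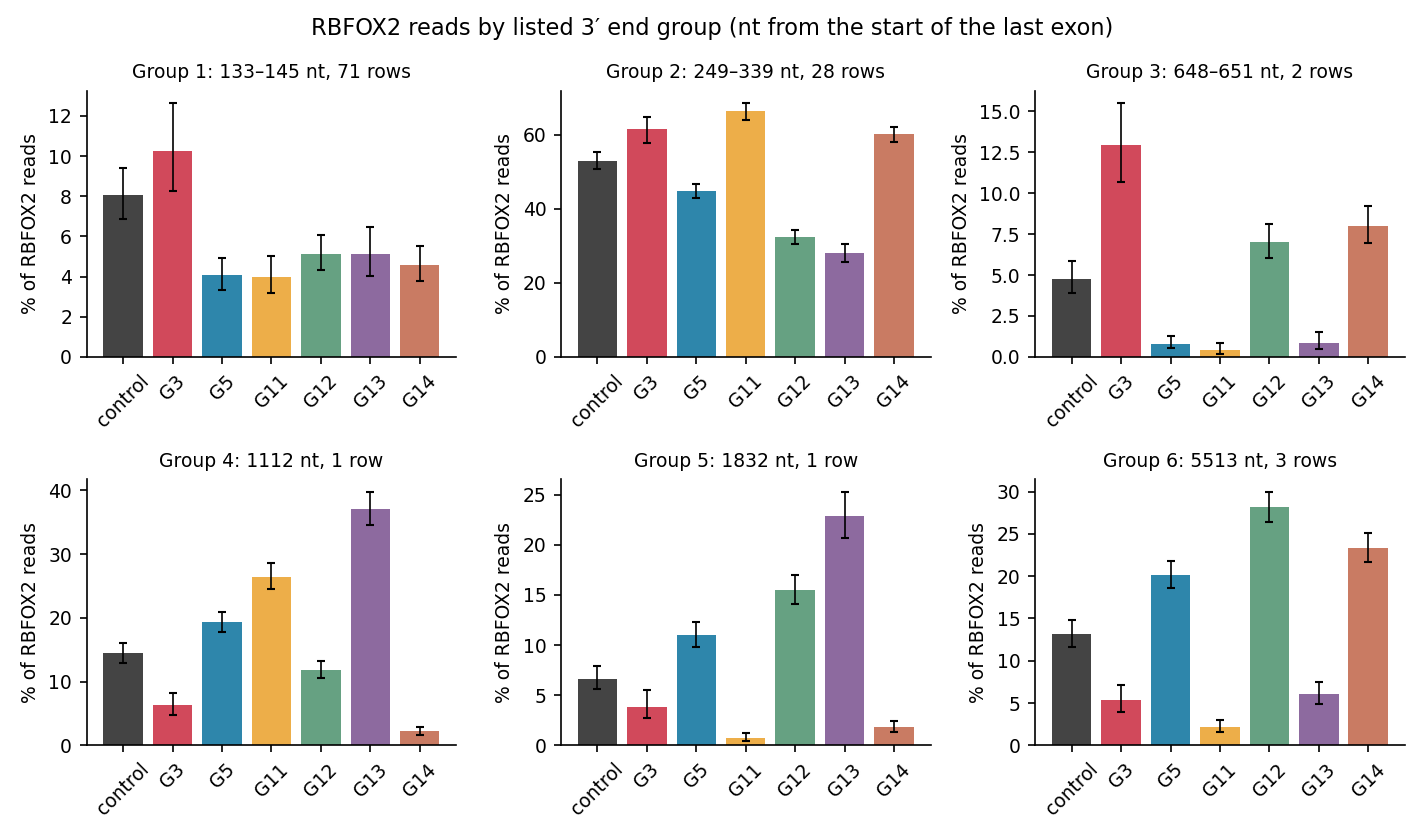
Share of RBFOX2 reads (percent, y axis, a different range in each panel) listed in each of 6 groups of 3′ ends, by library (x axis), with 95% Wilson intervals as error bars and 1 library per bar. Group 5 ran from 0.695% in G11 to 22.9% in G13 and group 6 from 2.14% in G11 to 28.1% in G12, while group 1 stayed between 3.998% and 10.25%.

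Of the 36 differences in share between a G library and the control, 35 had an interval that left out 0, 15 of them higher and 20 lower. Such intervals are narrow at these read numbers: over the 8396 end groups with at least 50 control reads in the genes compared below, the same held for 40.7% in G3, 44.5% in G11, 45.4% in G12, 46.5% in G13, 47.8% in G5 and 49.3% in G14. RBFOX2 had 5 of its 6 groups called in G3 and 6 of 6 in each other G library. On log2(TPM + 0.5), which understates changes of low values, 4 of the 6 groups were at least 2-fold lower in each of G3, G11 and G13, 2 in each of G5 and G14, and 0 in G12. Over the same 8396 groups, 5.37% were called lower in G3, 8.55% in G11, 11% in G13, 9.49% in G5, 15.0% in G14 and 6.6% in G12. Group 1 was among the groups called lower in G5, G11 and G13. Every listed row had at least 1 control read, and 46 of the 71 rows of group 1 had just 1. Its 9 rows with at least 3 control reads stood at 59.1% of the control level in G5, 60.2% in G11 and 36.3% in G13. The part of row choice in these calls was not tested. No RBFOX2 group was called at least 2-fold higher, against 1.54% of all groups in G3, 1.13% in G11, 1.72% in G13, 0.834% in G5, 5.75% in G14 and 0.917% in G12. In bulk RNA, fewer cells that use an end and less of that RNA per cell cannot be told apart.

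Library totals set these levels, and another scale moved them. Scaling by the median of ratios over genes shifted log2 levels up by 0.32 in G13, 0.27 in G12, 0.25 in G14, 0.17 in G11, 0.06 in G5 and 0.04 in G3. On that scale group 5 was at 1.15 (log2) in G12 and 1.10 in G13, and group 6 at 1.06 in G12 and 1.03 in G14, all past 2-fold higher. Group 2 in G11 (log2 -0.05, 96.7% of the control, 88.7 to 105.5) lay below the control by library totals and above it on that scale. The shares do not depend on the scale.

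The distance between the end use of a G library and that of the control was set against the same distance in other genes. The distance is the sum of the share differences in 1 direction, so 0 means equal use and 1 no overlap. For RBFOX2 it was 0.389 in G13, 0.261 in G12, 0.254 in G11, 0.206 in G14, 0.188 in G3 and 0.162 in G5. It reached the call of 0.2 in 4 G libraries, where 2.64% (G11), 1.86% (G12), 3.31% (G13) and 3.72% (G14) of 5380 genes were called, against 1.6% in G3 and 2.25% in G5. In G13 only 0.223% of genes were at or above RBFOX2, and in G5 4.02% were. The median over genes was 0.0160 to 0.0186. With groups opened only at gaps of over 500 nt, which joins groups 1 to 4, G12 alone reached 0.2, and G11, G13 and G14 fell to 0.170, 0.162 and 0.102.

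A row's listed end went with how many reads the row had. Of the 52 rows with 1 control read, 88.5% were in group 1, as were 80% of the 20 rows with 2 reads, 36.8% of the 19 rows with 3 to 9, 20% of the 10 rows with 10 to 99 and 0 of the 5 rows with at least 100. The median position moved from 145 nt into the exon in the rows with 1 read to 1112 nt in the rows with at least 100. No isoform ID occurred more than once among the 386982, so each ID carries 1 end, and other ends of the same splice form cannot be seen in these values. Across the 106 rows, Spearman's rho between control reads and distance into the exon was 0.558. Over 8220 genes with at least 10 rows the median rho was 0.435, 92.9% were above 0 and 27.0% were at least as high as RBFOX2. These rows share a library, and the value is a description.

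**Figure D2:**
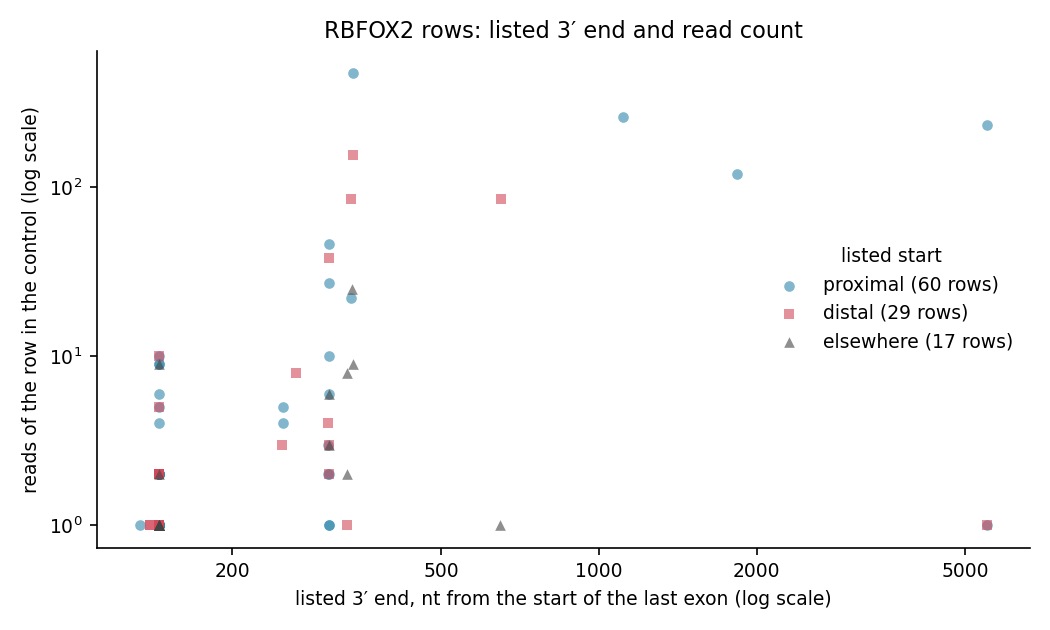
Each point is 1 of the 106 RBFOX2 rows: the distance of its listed 3′ end from the start of the last exon (nt, log x axis) against its reads in the control (log y axis), with the marker giving the start class. The column of points at 145 nt reaches 10 reads, and the 5 rows with at least 100 reads lie at 339 nt or beyond.

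Rows with few control reads were also lower in every G library. Across the whole table the 221762 rows with 1 control read stood at 34.6% to 43.8% of their control level in the G libraries, and rows with at least 100 control reads at 98.6% to 100.6%. Every listed row had at least 1 control read. Group 1, of which 46 rows had 1 control read, stood at 55.9% of the control level in G14, 52.55% in G12, 49.99% in G3, 45.5% in G5, 38.4% in G11 and 33.0% in G13. Its 9 rows with at least 3 control reads stood at 74.2%, 67.7%, 60.4%, 59.1%, 60.2% and 36.3% in that order. The part that row choice plays in the lower level of group 1 was not tested. Ends followed by at least 12 A of 20 bases made up 87 of the 103 rows with a full window, and held 31.0% of RBFOX2 reads in the control, 48.9% in G13 and 9.34% in G14. The 1 row of group 4 alone held 260 of those 559 reads in the control, 473 of 623 in G13 and 49 of 207 in G14.

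First exon and 3′ end lie on the same molecule, so the shares of the listed ends were next compared with the start held fixed. Each isoform ID carries 1 listed end, so these are shares of isoform IDs and not of ends seen read by read. Among proximal reads, G3 held 225 reads where the control held 1306, and groups 4, 5 and 6 held 20.9%, 12.9% and 17.8% of proximal reads in G3 against 19.9%, 9.19% and 18.1% in the control. Of the proximal differences in G3, that of group 2 alone had an interval leaving out 0, from 46.0% to 38.7% (difference -7.35 points, -14.05 to -0.316). The difference of group 4 in G3 had an interval of -4.32 to 7.12 points, so smaller shifts were not detectable. In G5, groups 1, 5 and 6 left out 0 within the proximal start, with differences of -4.01, 2.68 and 3.66 points. Among distal reads, G3 and G5 had no group whose interval left out 0. Group 2 held 70.9% of distal reads in the control, 71.95% in G3 and 71.6% in G5, and group 3 held 20.1%, 19.7% and 22.7%. With 88 distal reads in G5, the difference of its group 3 had an interval of -5.91 to 13.04 points, so a shift within that interval was not detectable.

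In G11 to G14 the shares of the end groups differed from the control within both starts. Groups 3 to 6 were each almost wholly 1 isoform ID with 1 listed end. A change of splice form and a change of 3′ end therefore cannot be told apart in these shares. Among proximal reads group 4 held 44.0% in G13, 32.2% in G11, 14.6% in G12 and 2.91% in G14. Group 5 held 27.2% of them in G13, 19.2% in G12, 2.38% in G14 and 0.845% in G11, and group 6 held 34.8% in G12, 30.7% in G14, 7.16% in G13 and 2.60% in G11. Among distal reads group 3 held 41.9% in G12, 35.8% in G14, 4.88% in G13 and 2.64% in G11, against 20.1% in the control. Group 6 of the proximal start and group 3 of the distal start were thus both low in G11 and G13 and both high in G12 and G14. Over both starts, 32 of 54 differences had an interval that left out 0. The same count within a start was not made over other genes. Without regard to start, 40.7% (G3) to 49.3% (G14) of all end groups had such an interval.

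**Figure D3:**
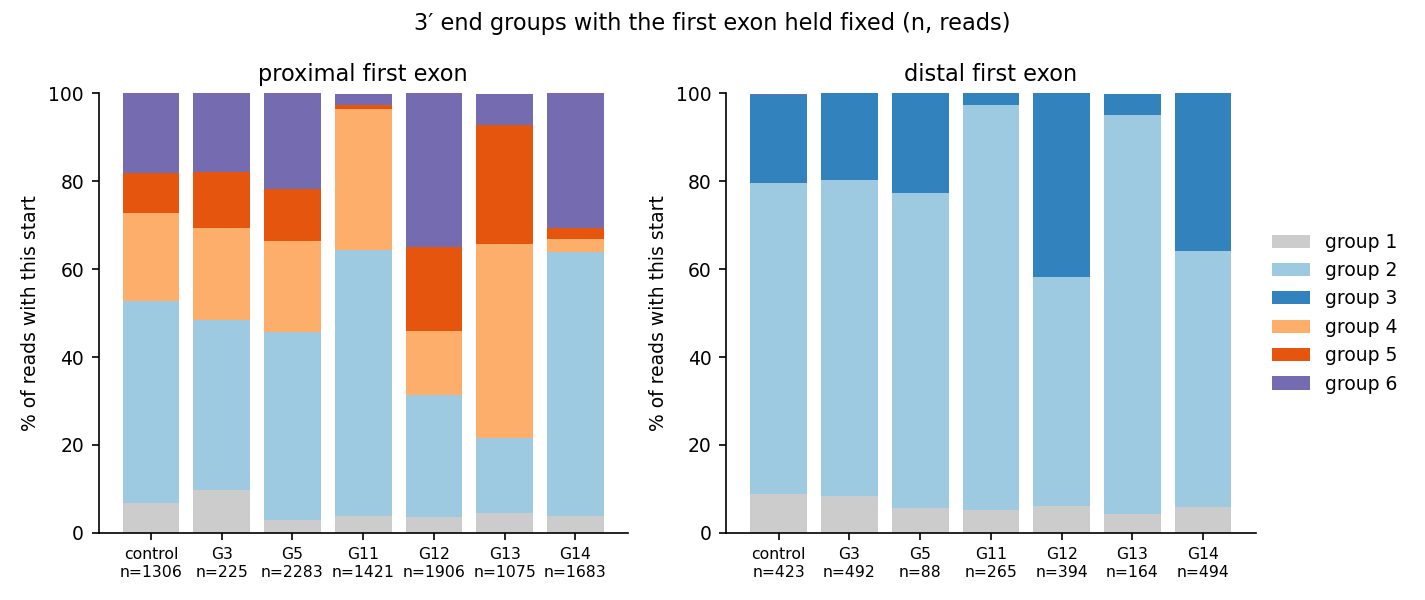
Share of reads in each 3′ end group (percent, stacked) among reads with the proximal first exon (left) and with the distal first exon (right), by library, with the number of reads under each bar. Within a start the difference farthest from 0 in G3 or G5 was -7.35 points, while group 3 of the distal start ran from 2.64% in G11 to 41.9% in G12.

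The reads starting outside both first exons came from 17 rows at 3 sites. Together they numbered 93 in G5, 73 in the control, 60 in G12, 40 in G11, 39 in G14, 36 in G13 and 34 in G3. Their share of RBFOX2 reads was 4.05% in the control (3.23 to 5.06), between 1.76% and 2.82% in G11 to G14, 4.53% in G3 and 3.77% in G5. The difference from the control left out 0 in G11, G12 and G14. With rows of at least 10 control reads only, 1 row starting elsewhere was left, with 25 control reads. Its share of the reads so kept differed by -0.519 points in G11, -0.799 in G14, -1.057 in G12 and -1.475 in G13. With all rows the differences were -1.73, -2.29, -1.509 and -1.228 in that order.

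The site called M1 comprised 8 rows starting at 35809923 to 35810006, 4 of them at 35810006. That is 2 nt beyond the upstream edge of a 225-nt exon (35809780 to 35810004), which is exon 1 in ENST00000397303.6 and exon 2 in 8 other GENCODE 29 transcripts, most of them with the proximal first exon. M1 held 92 reads in G5, 50 in the control, 32 in G12, 31 in G13, 27 in G11, 26 in G3 and 20 in G14. Its level relative to the control was 121.5% in G5 (85.2 to 175) and 32.1% to 48.95% in the other 5. The interval of G5 overlapped none of those of G11, G12, G13 and G14, which ended at 70.9%, 64.1%, 72.96% and 54.9%, nor that of G3, which ended at 80.2%.

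The site called M2 comprised 8 rows starting at 35938870 to 35938899, 6 of them at 35938899. This is 2 nt beyond the edge of a 51-nt exon (35938847 to 35938897) that is exon 1 in ENST00000359369.8 and exon 2 in 2 others, among them ENST00000438146.6, which has the distal first exon. M2 held 28 reads in G12, 21 in the control, 19 in G14, 13 in G11, 8 in G3, 5 in G13 and 1 in G5. It was lowest in G5, with 1 read or 3.14% of the control level (0.0760 to 19.55), and low in G13 at 17.55% (5.17 to 47.8). G12 stood at 84.0% (46.0 to 155.5). The intervals of G3, at 35.9% (13.7 to 84.3), and of G12 overlap. With the 2 rows of at least 3 control reads alone, 14 reads in the control, M2 stood at 49.5% in G12, 20.2% in G3 and 74.9% in G11 (49.9% with all 8 rows).

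The major starts give the setting of these values. Proximal reads stood at 16.2% of the control level in G3 (14.02 to 18.7) and 115% in G5 (108 to 124), and distal reads at 109.5% in G3 (95.95 to 125) and 13.7% in G5 (10.8 to 17.3). M1 was above M2 in G5 without overlap of the intervals, and the intervals of the 2 sites overlapped in G3. In G3 the interval of M2 (13.7 to 84.3) lay below that of the distal start. The 1 row of the site called M3 began at 35961527, 36 nt inside the intron after an exon of ENST00000408983.2. It had 2 reads in the control and 0 in every G library, where a count of 0 allows up to 0.112 to 0.168 TPM, so nothing can be said of its change.

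**Figure D4:**
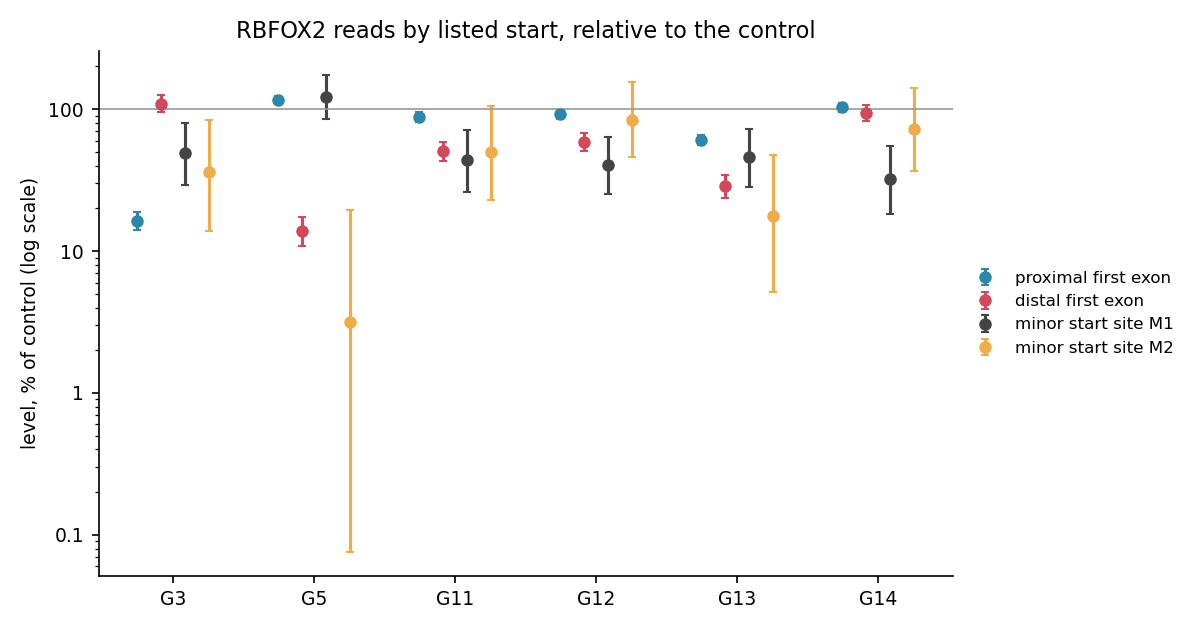
Level of RBFOX2 reads by listed start in each G library (x axis) as a percent of the control (log y axis), with exact 95% intervals for counting error and 1 library per point. In G5 the distal start and site M2 stand at 13.7% and 3.14% while the proximal start and M1 stand at 115% and 121.5%.

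The rows at these minor sites were then read 1 by 1, since the totals joined rows that differed from the control in opposite directions. At each start the 4 rows with the most reads over all libraries were taken. They held between 77.8% and 100% of the reads of that start in every library. Each row was sorted by whether its TPM was higher in G11 or G12, and higher in G13 or G14, a sorting chosen after the values were seen. Contrasts of G11 with G12 and of G13 with G14 in the sorted rows are fixed by it. At M1 and M2 some rows were placed by a few reads. At the proximal start the 4 rows took the 4 possible combinations, 1 each, and the same held at the distal start and at M1.

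The rows higher in G11 than G12 and in G14 than G13 were the leading rows of each start. At M1 this row (35743912 to 35810006) had 41 reads in G5, 25 in the control, 17 in G11, 16 in G14, 11 in G3, 11 in G12 and 1 in G13. ENST00000416721.6 of the proximal start had 947 reads in G14, 803 in G11, 415 in G12 and 131 in G13, and the leading distal row (35743911 to 36028777) had 259, 161, 75 and 15 in that order. The leading M2 row (35743919 to 35938899) had 14 reads in G14, 10 in G11, 8 in the control, 6 in G12, 1 in G5, 1 in G13 and 0 in G3. All of these rows ended in group 2.

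The rows higher in G11 and in G13 are those that the sorting placed the other way within the last pair. ENST00000397303.6, which starts at M1, had 20 reads in G5, 17 in G13, 10 in G11, 9 in the control, 5 in G3, 2 in G12 and 0 in G14. Its proximal counterpart by this sorting is the group 4 row, with 473 reads in G13 and 49 in G14, and its distal counterpart is ENST00000695854.1, with 81 and 17. These 3 rows ended in 2 different groups, at 339 nt (M1), 1112 nt (proximal) and 337 nt (distal) into the last exon.

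In the rows higher in G12 and in G14, a lower level in G11 than in G12 is set by the sorting. A row of M1 that ended at 35744105 had 17 reads in G5, 13 in G12, 9 in the control, 5 in G3, 4 in G14, 1 in G13 and 0 in G11. By the same sorting it falls beside ENST00000449924.6 of group 6 (37 reads in G11 and 664 in G12) and the distal row of group 3 (7 and 165). An M2 row that ended at 35744105 had 9 reads in G12, 4 in G3, 4 in G14, 1 in the control, 0 in G5, 0 in G11 and 0 in G13. The listed ends of the proximal, distal and M1 rows of this kind lay 5513, 651 and 145 nt into the exon, each in a different group.

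At the proximal start, the distal start and M1, the rows higher in G12 and in G13 had the fewest reads over all libraries. The M1 row of this kind, also ending at 35744105, had 14 reads in G5, 9 in G13, 6 in G12, 5 in G3, 1 in the control, 0 in G11 and 0 in G14. The proximal group 5 row had 366 reads in G12, 292 in G13, 40 in G14 and 12 in G11, and ENST00000438146.7 of the distal start had 69, 44, 9 and 2 in that order. At M2, 2 rows fell here, 1 with 8 reads in G12, 2 in G13, 1 in G14 and 0 in G11, and 1 with 5, 2, 0 and 3 in that order, and none fell with the rows higher in G11 and G13. Their order rests on a few reads.

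**Figure D5:**
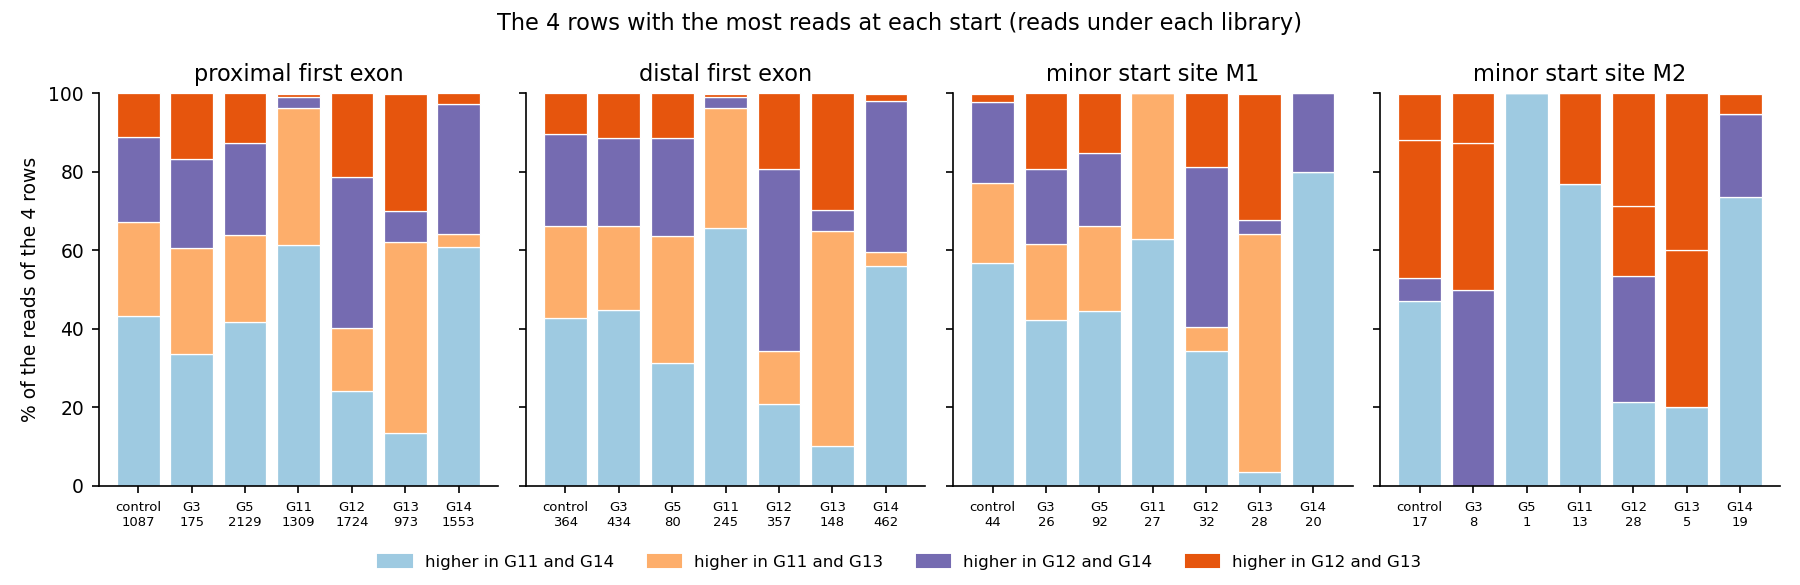
Percent of the reads of the 4 leading rows at each start (stacked, y axis) by library, with their summed reads under each bar. Colours sort each row by whether it was higher in TPM in G11 or G12 and in G13 or G14: at the proximal start, the distal start and M1 each colour is 1 row, and in the control, which the sorting did not use, the row higher in G11 and G14 held 43.4%, 42.9% and 56.8%.

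The sorting used G11 to G14, so a contrast between those libraries is fixed by it and shows nothing about the starts. The control, G3 and G5 were not used in the sorting, but their reads counted in the choice of the 4 rows. In the control the row higher in G11 and G14 made up 43.4% of the 4 rows' reads at the proximal start, 42.9% at the distal start and 56.8% at M1 (25 of 44 reads). The row higher in G11 and G13 made up 23.9%, 23.35% and 20.45% there, and the row higher in G12 and G14 made up 21.6%, 23.35% and 20.45%. The row higher in G12 and G13 made up 11.04%, 10.4% and 2.27% of them in the control, and 16.6%, 11.3% and 19.2% in G3. The differences between starts were not tested. The rows higher in G11 and G13 lay in 2 end groups across these 3 starts, and those higher in G12 and G14 in 3.

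The isoform IDs carry 2 parts, and what each part encodes is not given in the sources used here. Of the 16 minor-start rows with a hashed ID, 9 shared their second part with a row at the proximal first exon, in 11 pairs, of which 3 had the same listed 3′ end. The M2 row with 8 reads in G12 and 0 in G11 shared it with the group 5 row (366 and 12 reads), and the M2 row with 6 control reads shared it with the group 4 row. The leading M2 row shared it with a proximal row ending at 35743945 that had 6 reads in G13 and 6 in G14, unlike its own 1 and 14. The other minor-start rows were small: 1 row of M1 that ended in group 3 had 1 read in the control and 3 in G13, another of M1 had 3 reads in the control and 0 in every G library, and 2 of M1 and 4 of M2 had 1 control read and 0 elsewhere.

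Genes of the cleavage and polyadenylation machinery were compared as a list, since they act at 3′ ends. Of the 24 genes, 23 were in the table and 21 had a mean of at least 5 TPM; the list was chosen with earlier results of these data known. None of the 21 was at least 2-fold higher than the control in any G library, against 3.97% (G14), 1.89% (G3), 1.04% (G13), 0.724% (G11), 0.546% (G12) and 0.533% (G5) of 7877 genes. Those at least 2-fold lower numbered 5 in G14 (18.9% of all genes), 4 in G13 (14.6%), 4 in G11 (10.4%), 3 in G12 (8.79%), 1 in G5 (10.1%) and 0 in G3 (5.14%). The list's median log2 difference was 0.28 in G5, 0.24 in G3, 0.14 in G11, 0.12 in G14, -0.06 in G12 and -0.14 in G13, where that of all genes was 0.14, 0.12, -0.04, -0.10, -0.16 and -0.21.

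The genes at least 2-fold lower in at least 3 G libraries were CPSF1, SYMPK, PABPN1 and ZC3H3. The share of all genes that met this rule is not given here, so these names are a description. CPSF1, the largest subunit of the complex that binds the hexamer, was at 12.7 TPM in G3, 9.34 in the control, 8.72 in G5, 3.60 in G11, 2.92 in G12, 2.53 in G14 and 1.01 in G13. SYMPK, a scaffold of the same machinery, was at 55.4 TPM in G3, 39.4 in G5, 37.8 in the control, 18.5 in G11, 16.01 in G12, 12.3 in G14 and 4.08 in G13. Both were thus above the control in G3 and lowest in G13. The sum of COL1A1 and COL1A2, which are not on the list, was also above the control in G3 (38.5 TPM) and lowest in G13 (4.21). ZC3H3, a zinc finger protein of polyadenylation and mRNA export, went from 32.8 TPM in the control to 2.76 in G13. PABPN1, the nuclear poly(A)-binding protein, went from 46.4 TPM in the control to 17.1 in G11 and 39.05 in G3. NUDT21 and CPSF6, subunits of the factor known to favour distal sites, stood at 82.4 and 238 TPM in the control, with 60.01 to 74.7 and 207 to 314 in the G libraries. Whether any of these levels bears on the RBFOX2 ends was not tested.

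The family members RBFOX1 and RBFOX3, which recognise the same RNA element, had at most 0.476 and 0.238 TPM in any library. RBFOX2 itself had 107 TPM in the control, 106 in G14, 96.8 in G5, 88.5 in G12, 82.85 in G11, 55.9 in G13 and 42.1 in G3. The genes whose log2(TPM + 0.5) was most alike to the RBFOX2 total over the 7 libraries, of 6618 compared, were RC3H2 (Pearson's r 0.907), RABIF (0.895), COPZ1 (0.889), MAP9 (0.883) and KANK1 (0.848). Their range was small beside that of RBFOX2: RC3H2 lay between 9.86 TPM in G3 and 13.45 in the control. These correlations are a description over libraries of 1 preparation method, 1 per group.

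The control was the shallowest library (16801842 reads) and G12 the deepest (26678538). Of the pluripotency markers, 6 of 8 were over 5 TPM in every library and their sum ran from 1510 to 1940 TPM; SOX2 was not among the listed genes. Of 5 fibroblast markers, COL1A1 and COL1A2 were listed, at a summed 38.5 TPM in G3, 29.9 in G5, 27.7 in the control, 14.45 in G11, 9.41 in G12, 7.83 in G14 and 4.21 in G13, and the defining markers COL3A1, DCN and LUM were not listed. The 7 germ layer markers summed to at most 0.192 TPM. Reference isoforms of 171 to 1444 nt had a median log2 difference from the control between -0.99 in G14 and -0.30 in G12, and those of 3964 to 34526 nt between -0.05 in G13 and 0.36 in G5. The part of these differences in the RBFOX2 results was not tested.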

How the data were processed

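Per the labels' protocols, the authors read 8-fold arrays of joined cDNA (MAS-Seq) on a Revio sequencer and cut each array read in software into 1 read per cDNA. The submitters' processing notes name minimap2 2.17 and GRCh38. The assignment of reads to isoforms, its filters and its annotation are not given in the sources used here. Each isoform has, in every library, a count of full-length reads and a TPM value, as deposited and per the file headers. The deposited TPM equalled the count over 1 constant per library to within 0.005, so it has no length term. Empty cells were read as 0.

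Library totals ran from 16801842 to 26678538 reads, and listed rows held 98.14% to 100% of them. The start column was taken as counted from 0, so 1 was added, and ends may be off by 1 base or more. Shares have Wilson intervals, share differences Newcombe intervals and level ratios exact (Clopper-Pearson) intervals, all at 95% and without molecular identifiers. Usage distance was computed for 5380 genes with at least 2 end groups and at least 100 reads in every library. With 1 library per group there was no test across genes. Exons and sequences came from GENCODE 29. Named were the end groups with at least 2% of RBFOX2 reads in any library, minor-start rows with at least 3 reads in some library, list genes at least 2-fold changed 1 way in at least 3 G libraries, RBFOX1 and RBFOX3, and the 5 genes of at least 10 TPM most alike to RBFOX2. Alternatives were other gaps between end groups, row filters, start windows, pseudocounts, scales and references. Python 3.11.15, numpy 2.4.6, pandas 2.3.3 and scipy 1.17.1 were used, and the distance and the intervals were tested on simulated data. The members and lists were chosen with earlier results of these data known.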

Additional observations from a re-analysis of the deposited data

How the results depend on the processing

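No paired analysis was possible because each group had 1 library. With a gap of 500 nt, which joined groups 1 to 4, all 18 differences in share left out 0 and 1 G library in place of 4 reached the usage distance of 0.2. The joined group differed from the control by 16.97 points in G11, 10.62 in G3, -5.324 in G14, -9.13 in G13, -11.32 in G5 and -23.83 in G12. Its sign was opposite to that of group 4 taken alone in G3, G5 and G13. It was also opposite to that of group 3 in G11, G12 and G14, group 1 in G11 and group 2 in G14. With reference IDs alone 12 of 12 differences left out 0, group 2 turned to 5.426 points in G13 and -7.865 in G14, and the reads starting elsewhere turned to 3.631 points in G13, 0.3507 in G5 and 0.04919 in G11. With a gap of 25 nt, which split group 2, the piece with its leading row differed by -2.214 points in G5 (-8.217 with all of group 2), 13.8 in G14 (7.167) and 19.11 in G11 (13.34). With rows of at least 1 TPM no read started elsewhere, so 0 of 6 differences left out 0. The count of end groups at least 2-fold higher went from 0 to 4 under the median of ratios and to 9 with the median of the other 6 libraries as reference. For the polyadenylation list the pairs of gene and library went from 0 to 2 and 6 higher and from 17 to 11 and 7 lower under the same settings. The other 29 recomputed summary counts stayed within 1.5 times the reported ones, which does not cover single groups or sites. The choice of rows of at least 10 control reads was made after seeing the data. Depth limits M2 and M3 most: 1 to 28 and 0 to 2 reads per library. What the ends show rests on 1 listed end per isoform ID, and the cause of the changes above, other than the joining of groups and the loss of rows, was not tested.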

Other observations

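The 3′ ends listed for reference IDs often differed from those of the same IDs in GENCODE 29. ENST00000449924.6, whose reads made up group 6, was listed 4865 nt beyond its annotated 3′ end, 1 nt from another annotated end of the same exon. ENST00000405409.6, annotated to the far end of the exon, was listed 5209 nt short of it, and its 27 control reads were counted in group 2. ENST00000416721.6 was listed 237 nt beyond its annotated end, ENST00000397303.6 47 nt beyond it and ENST00000414461.6 312 nt short of it. ENST00000438146.7 and ENST00000695854.1 are not in that release.

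Of the 9 annotated ends in the last exon, the nearest lay 18 nt from the commonest listed end of group 1, 22 and 12 nt from the positions 35743911 and 35743945 of group 2, 3 nt from group 3, 464 nt from group 4 and 1184 nt from group 5. Group 5 thus had ATTAAA 16 nt before an end that lay far from any annotated one, and group 4 had an end far from any annotated one with 13 A in the 20 bases after it.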
